A study of Mus musculus with 30 samples.

Results

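The dystrophin-glycoprotein complex was followed through 8 of its genes, *Dmd*, *Utrn*, *Dag1*, *Sgca*, *Sgcb*, *Sgcd*, *Sspn* and *Dtna*, in 3 muscles (gastrocnemius, diaphragm and heart) and the liver of *Mtm1* knockout mice and their WT littermates. These are the 8 rows, of 36103 in the count table, whose gene carries one of those symbols, and that rule uses no measured value. RNA was sequenced from whole dissected tissue of male mice of the 129Pas background at 5 weeks of age. The *Mtm1*-/y mice (labelled Mtm1KO) lack a functional X-linked *Mtm1* gene in all tissues and model X-linked centronuclear myopathy, also called myotubular myopathy. The WT mice are untreated littermates of the same background, sex and age. Each genotype is represented by 4 libraries per tissue, except that there are 3 from *Mtm1*-/y diaphragm and 3 from WT liver, which makes 30 in all. Each library of a group comes from a different mouse by the methods of the study, and the labels do not tie the tissues to individual animals.

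Dystrophin is a long rod-shaped protein that joins cortical actin to the muscle fibre membrane, the sarcolemma. There it binds dystroglycan, whose glycosylated outer part holds laminin in the basement membrane, so that the complex forms a bridge from cytoskeleton to matrix that protects the membrane during contraction. The sarcoglycans and sarcospan brace dystroglycan within the membrane, the dystrobrevins and syntrophins bind dystrophin from inside and recruit signalling proteins, and utrophin takes the place of dystrophin at the neuromuscular junction and in many cells that are not muscle. Loss of dystrophin causes Duchenne muscular dystrophy, and loss of single sarcoglycans causes limb-girdle muscular dystrophies, some of them with cardiomyopathy.

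The libraries held 24873817 to 44289343 counts. Levels are given in CPM, library-scaled counts after TMM normalisation. The targeted gene *Mtm1* was at 15.5 to 27.0 CPM across WT libraries and at 3.49 to 8.08 CPM across *Mtm1*-/y libraries, with no overlap. The summed level of 8 fast fibre markers was 130184 to 246257 CPM in the gastrocnemius, that of 7 cardiomyocyte markers was 40908 to 60349 CPM in the heart, and that of 9 hepatocyte markers was 172304 to 222609 CPM in the liver. Hepatocyte markers were also present in the diaphragm, where their sum ran from 419 to 34630 CPM over the WT libraries and from 746 to 44163 CPM over the *Mtm1*-/y libraries, against at most 132 CPM in the gastrocnemius and heart. Diaphragm levels are therefore given with that sum where it moves with them. In whole tissue, fewer cells of a type and less RNA per cell cannot be told apart.

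The 8 genes differ widely in size, so that levels of different genes are compared only per kilobase of annotated exon. On mm10, *Dmd* (ENSMUSG00000045103) lies on chromosome X at 82948870 to 85206141 on the plus strand, with 23.8 kb of exon. *Utrn* (ENSMUSG00000019820) lies on chromosome 10 at 12382188 to 12869365 on the minus strand, with 17.1 kb of exon. *Dag1* (ENSMUSG00000039952) lies on chromosome 9 at 108204634 to 108263958 on the minus strand. The sarcoglycan genes *Sgca* (ENSMUSG00000001508, chromosome 11, 94962791 to 94976327), *Sgcb* (ENSMUSG00000029156, chromosome 5, 73632749 to 73647790) and *Sgcd* (ENSMUSG00000020354, chromosome 11, 46896253 to 47988969) are all on the minus strand, with 1.74, 4.05 and 8.26 kb of exon. *Sspn* (ENSMUSG00000030255) lies on chromosome 6 at 145931641 to 145965223 on the plus strand. *Dtna* (ENSMUSG00000024302) has 16.9 kb of exon. Antisense genes overlap 69 exon bases of *Sspn* (1.38%) and 90 exon bases of *Dtna* (0.532%), and the other 6 members share no exon base with another gene.

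Upstream windows are shown for a selection of the genes. They are the 2 starts of *Dmd* that had a RefSeq window, and the starts of *Sgca* and *Sgcb*, the sarcoglycan genes that were lower in the *Mtm1*-/y gastrocnemius. *Dag1*, which was also lower there, had RefSeq windows that are not printed. *Dmd* has 14 annotated transcripts, and its counts are summed over all of them. Sequences are from RefSeq on GRCm38.p6, 5′ to 3′ on the strand of the gene, and end at the base before the annotated start. The *Sgcb* window stops 53 bases earlier, where exon sequence of GENCODE begins. Capitals mark matches to CANNTG, the E-box that myogenic basic helix-loop-helix factors can bind and whose complement reads as the same pattern.
Dmd first start, chrX:82948620-82948869, plus strand: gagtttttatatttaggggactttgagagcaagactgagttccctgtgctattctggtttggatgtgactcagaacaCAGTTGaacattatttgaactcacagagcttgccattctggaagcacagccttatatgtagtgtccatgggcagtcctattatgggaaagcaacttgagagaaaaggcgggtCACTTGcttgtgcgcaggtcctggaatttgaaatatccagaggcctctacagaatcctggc
Dmd internal start, chrX:85048045-85048294, plus strand: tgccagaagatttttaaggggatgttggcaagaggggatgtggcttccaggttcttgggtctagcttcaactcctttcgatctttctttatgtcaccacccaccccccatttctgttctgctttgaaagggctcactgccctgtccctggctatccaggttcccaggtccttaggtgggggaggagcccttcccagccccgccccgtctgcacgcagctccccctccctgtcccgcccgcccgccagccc
Sgca, chr11:94976328-94976577, minus strand: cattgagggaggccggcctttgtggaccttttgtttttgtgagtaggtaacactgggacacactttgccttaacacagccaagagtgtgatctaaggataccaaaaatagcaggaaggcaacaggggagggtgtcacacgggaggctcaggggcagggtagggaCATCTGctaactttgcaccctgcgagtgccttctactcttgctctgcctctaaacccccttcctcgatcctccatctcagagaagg
Sgcb, chr5:73647791-73647987, minus strand: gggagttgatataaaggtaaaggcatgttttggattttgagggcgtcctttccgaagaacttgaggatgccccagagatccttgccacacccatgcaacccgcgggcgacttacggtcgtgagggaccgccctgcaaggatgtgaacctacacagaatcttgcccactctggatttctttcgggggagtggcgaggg

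The windows of the *Dmd* starts lie 2.099 Mb apart and differ in composition, at 45.2% GC with 2 matches upstream of the first start and 60% GC with none upstream of the internal start. The *Sgca* window holds 1 match and the *Sgcb* window none. An E-box match was present in 66.22% of all 32851 RefSeq windows of 250 bases, which is the background for these counts. For *Sgcd*, 197 of the 250 bases upstream of the RefSeq start lie in exons of other annotated transcripts of the gene, and no window is printed. *Dmd* counts cannot tell full-length transcripts from shorter ones, such as those of the internal start shown, and the strand setting of the counting is not given in the sources used here.

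In WT muscle, *Dag1*, *Sgca*, *Sgcb* and *Sspn* were the abundant transcripts per length, *Dmd*, *Utrn* and *Dtna* were lower, and *Sgcd* was the lowest. In the WT gastrocnemius, mean levels as CPM per kilobase of exon (RPKM) were 148 for *Sgca*, 75.3 for *Dag1*, 60.7 for *Sgcb*, 33.3 for *Sspn*, 7.78 for *Dtna*, 7.57 for *Dmd*, 2.56 for *Utrn* and 0.975 for *Sgcd*. Delta-sarcoglycan, which forms the tightly bound core of the sarcoglycan complex with beta-sarcoglycan, was thus the lowest of the 8 in RNA. *Dtna* and *Dmd* did not differ there beyond their spread, with SDs of 0.529 and 0.503 RPKM over 4 libraries. In the WT heart the order began with *Dag1* at 90.3 RPKM and *Sspn* at 59.1 RPKM, ahead of *Sgca* at 52.3 RPKM. Exon length is that of all annotated transcripts joined, so that genes with many isoforms read low on this scale.

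**Figure D1:**
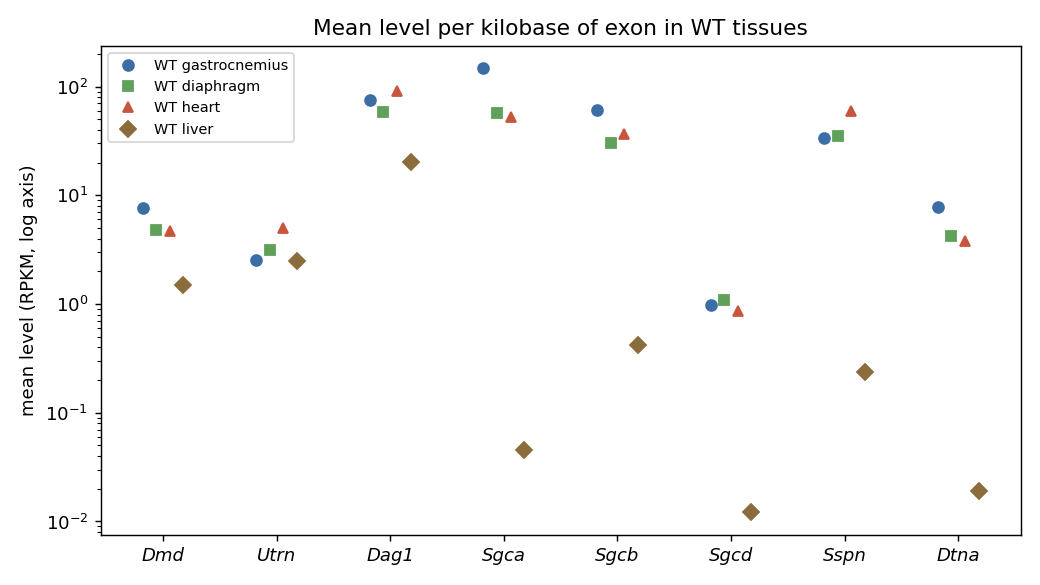
Mean level of each gene as RPKM (log axis) in the WT gastrocnemius, diaphragm and heart (4 libraries each) and liver (3 libraries); each symbol is the mean of 1 tissue. *Utrn* is the gene whose 4 symbols lie closest together, and *Sgca* in the gastrocnemius is the highest symbol at 148 RPKM.

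Across tissues, on the TMM scale, the gastrocnemius was the muscle richest in RNA of dystrophin, alpha- and beta-sarcoglycan and dystrobrevin. The heart was richest in that of utrophin and sarcospan. In the diaphragm 5 of the 8 genes were lower than in the gastrocnemius and none was higher (edgeR, adjusted p under 0.05), where 54.4% of all genes tested were called, 23.8% as lower. In the heart 4 were lower and 2 higher than in the gastrocnemius, where 61.3% of all genes were called, 28.7% lower and 32.6% higher. Between heart and diaphragm 3 were higher in the heart and none lower, where 51.7% of all genes were called, 22.1% higher in the heart. Most genes differ between these muscles, and the counts alone do not set the complex apart.

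*Dmd*, the cytoskeletal anchor of the complex, was at 170, 172, 183 and 196 CPM in the WT gastrocnemius, at 84.8, 97.4, 120 and 158 CPM in the WT diaphragm and at 106, 110, 110 and 123 CPM in the WT heart. Every gastrocnemius library lay above every diaphragm and heart library in CPM. The TMM factors of these groups differed, at 0.790 to 0.854 in the WT gastrocnemius, 1.08 to 1.19 in the WT diaphragm and 1.15 to 1.29 in the WT heart. Per total count alone, *Dmd* in the gastrocnemius overlapped both other muscles, and WT diaphragm 3 lay above every gastrocnemius library. The order of the muscles for *Dmd* thus depends on the scaling. The log2 fold change was -0.70 (SE 0.15) for diaphragm against gastrocnemius (edgeR adjusted p = 0.00123) and -0.72 (SE 0.15) for heart against gastrocnemius (edgeR adjusted p = 0.00076). Heart and diaphragm did not differ beyond their spread, with a log2 difference of -0.02 and a 95% interval of -0.34 to 0.30.

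*Utrn*, the autosomal relative of dystrophin, ran the other way. Its 4 WT gastrocnemius libraries had 39.6, 39.6, 45.7 and 50.6 CPM, its WT diaphragm libraries 50.2, 50.9, 55.8 and 58.9 CPM and its WT heart libraries 75.6, 79.7, 82.8 and 103 CPM. All 4 heart libraries lay above all diaphragm and gastrocnemius libraries, and the groups of diaphragm and gastrocnemius overlapped. Per total count alone, all diaphragm libraries lay above all gastrocnemius libraries. *Utrn* was 1.89-fold higher in the heart than in the gastrocnemius (log2 0.92, SE 0.12, edgeR adjusted p = 1.47e-05) and 1.59-fold higher than in the diaphragm (edgeR adjusted p = 0.000401). Its log2 difference of 0.25 between diaphragm and gastrocnemius (edgeR adjusted p = 0.0898) passed the test without WT diaphragm 1, WT heart 1 or WT heart 4 (adjusted p = 0.0472, 0.0412 and 0.0176) and in a fit of those tissues alone (adjusted p = 0.0362).

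The alpha-sarcoglycan gene *Sgca*, whose expression is known as restricted to striated muscle, showed the largest difference between muscles of the 8. It was at 233, 254, 259 and 279 CPM in the WT gastrocnemius, at 79.9, 87.5, 115 and 116 CPM in the WT diaphragm and at 76.8, 87.9, 98.7 and 99.8 CPM in the WT heart. No gastrocnemius library came near the range of the other muscles, and diaphragm and heart overlapped. The log2 fold change was -1.41 (SE 0.13) in the diaphragm and -1.54 (SE 0.13) in the heart, both against the gastrocnemius (edgeR adjusted p = 2.06e-06 and 1.91e-07). *Sgcb*, the beta-sarcoglycan gene, was lower by the same contrasts, with log2 fold changes of -1.07 (SE 0.14) in the diaphragm and -0.78 (SE 0.14) in the heart. *Sgcb* did not pass between heart and diaphragm (log2 0.29, edgeR adjusted p = 0.0904), and without WT diaphragm 3 it did (log2 0.36, edgeR adjusted p = 0.00861). *Sgcd* was at 6.06 to 11.6 CPM in all 12 WT muscle libraries, and none of its 3 contrasts between muscles passed the test. Per total count alone, all its diaphragm and heart libraries lay above all gastrocnemius libraries.

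Sarcospan, the small tetraspanin-like partner of the sarcoglycans, was higher in the heart than in both other muscles. *Sspn* was at 156 to 180 CPM in the WT gastrocnemius, 139 to 231 CPM in the WT diaphragm and 279 to 333 CPM in the WT heart, and the heart was 1.73-fold above the gastrocnemius (edgeR adjusted p = 0.00178) and 1.68-fold above the diaphragm (edgeR adjusted p = 0.00341). *Dag1*, the dystroglycan gene, was highest in the heart at 532 to 655 CPM, against 301 to 468 CPM in the diaphragm (log2 0.62, SE 0.13, edgeR adjusted p = 0.00109), and its log2 difference of 0.22 between heart and gastrocnemius did not pass the test (edgeR adjusted p = 0.147). Its difference of -0.40 between diaphragm and gastrocnemius (edgeR adjusted p = 0.0161) did not pass the test without WT diaphragm 1, WT diaphragm 4 or WT heart 1 (log2 -0.31, -0.23 and -0.32, adjusted p = 0.0845, 0.133 and 0.052). These *Dag1* orders depend on the scaling. Per total count alone, its mean was higher in WT diaphragm than in WT gastrocnemius, and all WT hearts lay above all WT gastrocnemius libraries. On that scale every WT diaphragm library of *Sspn* also lay above every WT gastrocnemius library. *Dtna*, which encodes alpha-dystrobrevin, was lower in the diaphragm (-0.93, SE 0.19) and in the heart (-1.07, SE 0.19) than in the gastrocnemius (edgeR adjusted p = 0.00091 and 0.000228).

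The hepatocyte sum of the 4 WT diaphragm libraries was 34630, 23375, 419 and 25648 CPM, in the order of their replicate numbers. WT diaphragm 3, with the lowest sum, held the highest WT diaphragm levels of every member but *Sgca*. They were 158 CPM for *Dmd*, 58.9 CPM for *Utrn*, 468 CPM for *Dag1*, 157 CPM for *Sgcb*, 11.6 CPM for *Sgcd*, 91.7 CPM for *Dtna* and 231 CPM for *Sspn*. Its *Dmd*, *Sgcb* and *Dtna* levels in CPM were below those of every WT gastrocnemius library, and its *Dag1* level lay within the WT gastrocnemius range of 462 to 503 CPM. The part of liver RNA in the differences of the diaphragm was not tested in these WT contrasts.

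The liver split the complex. *Dmd*, *Utrn* and *Dag1* kept clear expression there, and the 3 sarcoglycan genes, *Sspn* and *Dtna* were near absence. *Dag1* was at 116, 130 and 144 CPM in the WT liver, *Utrn* at 34.6, 43.6 and 48.3 CPM, and *Dmd* at 33.9, 35.2 and 37.2 CPM. *Utrn* in the liver overlapped *Utrn* in the WT gastrocnemius, and their log2 difference was -0.10 with a 95% interval of -0.38 to 0.18. *Dmd* was lower by 2.39 on the log2 scale than in the gastrocnemius (SE 0.17, edgeR adjusted p = 1.71e-08), and *Dag1* by 1.93 (SE 0.15, edgeR adjusted p = 2.77e-08).

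Of the remaining members, *Sgcb* was at 37 to 48 counts per WT liver library (at most 2.12 CPM) and *Sspn* at 23 to 37 counts (0.890 to 1.70 CPM). *Dtna* had 5, 7 and 12 counts, *Sgca* had 2 counts in each, and *Sgcd* had 0, 3 and 4 counts. A count of 0 allows up to 3 counts, which is 0.0954 to 0.138 CPM in these libraries, by counting error alone. *Sgca* and *Sgcd* thus sat about at that limit, and no fold change is given for them. In all, 7 of the 8 genes were lower in liver than in gastrocnemius, where 42.1% of all genes were lower, and all 8 were lower than in diaphragm and than in heart, where 40.6% and 40.8% of all genes were lower. *Utrn* was lower in liver than in heart (log2 -1.02, SE 0.13, edgeR adjusted p = 7.01e-06), and its difference from the diaphragm of -0.35 (edgeR adjusted p = 0.0244) did not pass the test with DESeq2 (adjusted p = 0.0601) or without WT liver 3 (log2 -0.24, edgeR adjusted p = 0.132).

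In the gastrocnemius of *Mtm1*-/y mice, the genes of the complex moved in both directions and by modest amounts. Delta-sarcoglycan rose, alpha- and beta-sarcoglycan and dystroglycan fell, and dystrophin, utrophin, sarcospan and dystrobrevin did not pass the test. The TMM factors over all libraries were 0.790 to 0.854 in WT and 0.995 to 1.05 in *Mtm1*-/y gastrocnemius. Both the falls and the lack of other rises depend on this scaling. Per total count alone, *Sgcb* and *Dag1* had higher means in *Mtm1*-/y muscle, and the *Sgca* groups overlapped. *Sgcd* still lay above all WT libraries on that scale. There, all *Mtm1*-/y libraries also lay above all WT libraries for *Dmd*, *Utrn*, *Sspn* and *Dtna*. With 1 gene up and 3 down, 4 of 8 were called, where 29% of the 15456 genes tested were called, 14.1% up and 14.9% down. The same 4 genes had no overlap between the libraries of the genotypes, as had 30.7% of all genes tested. The median log2 fold change of the 8 was -0.12, beside 0.02 over all genes. None of the 8 moved by more than 1 on the log2 scale, and 6.63% of all genes did so and passed the test.

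*Sgcd* was the member that changed most. Its level was 6.51, 8.03, 8.83 and 8.84 CPM in the WT gastrocnemius and 12.3, 13.7, 13.8 and 15.7 CPM in the *Mtm1*-/y gastrocnemius. All 4 *Mtm1*-/y libraries lay above all 4 WT libraries. The rise was 1.70-fold (log2 0.77, SE 0.12, edgeR adjusted p = 0.00137), from 164 to 288 counts per WT library to 414 to 595 counts. The log2 fold change stayed between 0.68 and 0.83 when any single library was left out, and the call was kept each time.

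*Sgca* was at 233, 254, 259 and 279 CPM in WT libraries and at 180, 184, 217 and 222 CPM in *Mtm1*-/y libraries. Every *Mtm1*-/y library was below every WT library, and the log2 fold change was -0.37 (SE 0.09, edgeR adjusted p = 0.0105). *Sgcb* was at 243, 243, 245 and 253 CPM in WT libraries and at 203, 215, 217 and 220 CPM in *Mtm1*-/y libraries, again with no overlap, and the log2 fold change was -0.22 (SE 0.06, edgeR adjusted p = 0.0147).

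*Dag1*, whose product spans the membrane between dystrophin and laminin, was at 462, 467, 484 and 503 CPM in WT libraries and at 418, 420, 423 and 450 CPM in *Mtm1*-/y muscle. The groups did not overlap, and the log2 fold change of -0.18 (SE 0.06, edgeR adjusted p = 0.0457) was just inside the threshold. Leaving out any 1 of the 8 libraries moved the *Dag1* adjusted p to between 0.055 and 0.126, and no filter on low counts moved it to 0.147.

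On the TMM scale, dystrophin RNA itself was close to WT, whereas per total count alone all *Mtm1*-/y libraries lay above all WT libraries. *Dmd* was at 170, 172, 183 and 196 CPM in WT and at 159, 175, 175 and 183 CPM in *Mtm1*-/y gastrocnemius. The groups overlapped, and the log2 fold change was -0.08 (SE 0.07, edgeR adjusted p = 0.453) with a 95% interval of -0.24 to 0.08. *Sspn* gave -0.08 (SE 0.08, 95% interval -0.27 to 0.10), and *Dtna* gave -0.17 (SE 0.07, edgeR adjusted p = 0.1). *Utrn* was at 39.6, 39.6, 45.7 and 50.6 CPM in WT libraries and at 49.6, 49.8, 53.3 and 59.4 CPM in *Mtm1*-/y muscle. Only the highest WT library reached into the *Mtm1*-/y range, and the log2 fold change of 0.26 (SE 0.10, edgeR adjusted p = 0.0725) passed the test only without that library, WT gastrocnemius 1 (log2 0.32, edgeR adjusted p = 0.0414).

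These calls depended on which libraries shared the fit. When all 30 libraries were fitted together, none of the 8 was called in the gastrocnemius, with adjusted p from 0.13 for *Sgcd* to 0.348 for *Sgca* among the 4. Without the liver, in a fit of the 23 muscle libraries chosen after seeing that result, *Sgcd* (log2 0.72, adjusted p = 0.00728) and *Sgca* (log2 -0.41, adjusted p = 0.0197) were called and *Sgcb* (adjusted p = 0.173) and *Dag1* (adjusted p = 0.194) were not.

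**Figure D2:**
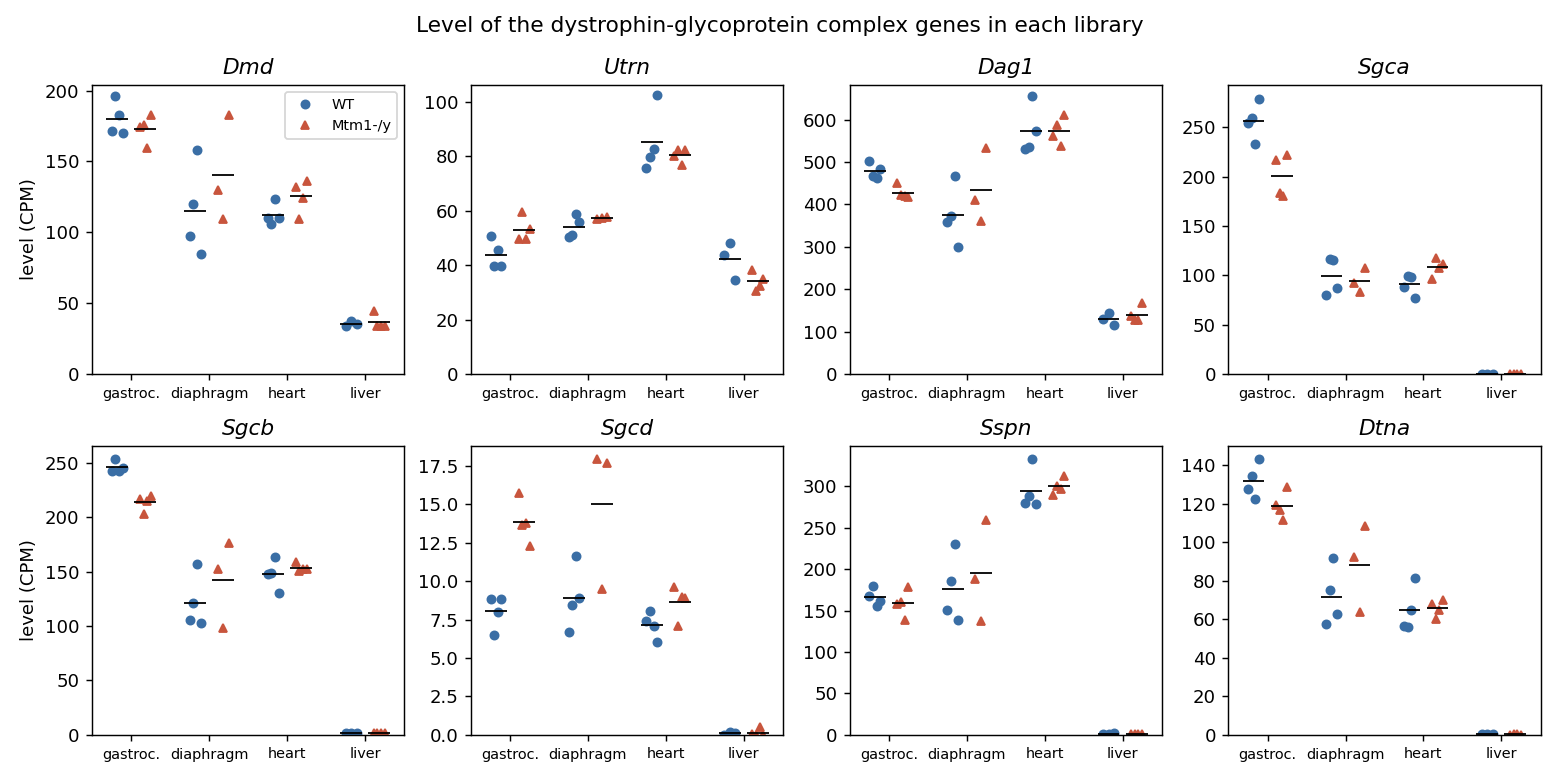
Level of each gene in CPM (vertical axis from 0, scaled per panel) in every library, by tissue; circles are WT, triangles are *Mtm1*-/y and bars are group means. In the gastrocnemius the *Sgcd* triangles, at 12.3 to 15.7 CPM, lie above all circles, and the *Sgca* and *Sgcb* triangles lie below all circles.

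In the *Mtm1*-/y gastrocnemius, markers of other cells and of fibre type moved as well. All 7 macrophage markers rose, and their sum was 28.9 to 51.2 CPM in the WT group and 86.6 to 112 CPM in the *Mtm1*-/y group. Of 8 fast fibre markers 7 fell and 1 rose, with a sum of 204806 to 246257 CPM in WT and 130184 to 144819 CPM in *Mtm1*-/y libraries. Of 7 white adipocyte markers 6 rose (218 to 335 against 350 to 534 CPM), of 6 fibroblast markers 4 rose (2216 to 4854 against 2977 to 6516 CPM), of 8 endothelial markers 2 fell (442 to 585 against 343 to 458 CPM) and of 7 smooth muscle and pericyte markers 3 fell (701 to 880 against 540 to 674 CPM). The mesothelial marker *Msln* rose from 0.245 to 6.14 CPM, and the other mesothelial markers *Upk3b* and *Wt1* were at or below 0.107 CPM on average in both groups. Of 7 cardiomyocyte markers 2 rose and 1 fell, the fall being that of *Actc1*, which skeletal muscle also expresses, and *Nppa* and *Myl7* were at or near 0 (sum 6746 to 7900 against 645 to 2521 CPM). The hepatocyte list had 1 of 9 markers that fell (33.2 to 115 against 6.46 to 61.1 CPM), the slow fibre list 1 of 6 (1287 to 4440 against 1044 to 2858 CPM), and the Schwann cell list 0 of 8 called (171 to 592 against 256 to 728 CPM). The part of these cells in the changes of *Sgcd*, *Sgca*, *Sgcb* and *Dag1* was not tested.

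In the *Mtm1*-/y diaphragm, no member passed the test, where 0.0119% of the 16796 genes tested were called, and 1 of the 8 had an unadjusted p under 0.05, as had 10.8% of all genes. DESeq2 called none of the 8 there. The spread between diaphragm libraries was wide, with a common biological coefficient of variation of 0.394, against 0.171 in the gastrocnemius. The median log2 fold change of the 8 was 0.23, beside -0.01 over all genes. *Sgcd* was again the largest, at 6.67, 8.43, 8.91 and 11.6 CPM in WT libraries and 9.52, 17.7 and 17.9 CPM in *Mtm1*-/y libraries. The *Mtm1*-/y libraries 1 and 4 stood above all WT libraries and library 2 lay within their range. The log2 fold change was 0.76 (SE 0.27), with an unadjusted p of 0.0249 in the edgeR test and an adjusted p of 0.393, and it lay between 0.63 and 1.00 without any single library. The 23-library muscle fit, chosen after seeing the data, gave 0.74 with an adjusted p of 0.0439. It was the only 1 of 16 alternatives in which *Sgcd* passed, and the adjusted p of the others went up to 0.822.

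The hepatocyte sum moved with these values. It was 2722 and 746 CPM in the *Mtm1*-/y libraries 1 and 4, and 44163 CPM in library 2. Taking out the 3033 liver-enriched genes before scaling left the *Sgcd* log2 fold change at 0.77 (edgeR adjusted p = 0.264). The other 7 members had log2 fold changes from -0.07 for *Sgca* to 0.31 for *Dtna*, and each 95% interval covered 0. For *Dmd*, at 84.8 to 158 CPM in WT and 109, 130 and 183 CPM in *Mtm1*-/y libraries, the interval ran from -0.33 to 0.93. *Utrn* was the steadiest member of the diaphragm, at 57.0, 57.2 and 57.8 CPM in *Mtm1*-/y against 50.2 to 58.9 CPM in WT libraries (log2 0.10, SE 0.10).

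In the *Mtm1*-/y heart, no member passed the test either, where 0.00656% of the 15238 genes tested were called, and 1 of the 8 had an unadjusted p under 0.05, as had 8.88% of all genes. DESeq2 called none of the 8 in the heart. The largest log2 fold changes were 0.26 (SE 0.13) for *Sgcd* and 0.24 (SE 0.10) for *Sgca*. *Sgca* was at 76.8, 87.9, 98.7 and 99.8 CPM in WT libraries and at 96.3, 107, 111 and 117 CPM in *Mtm1*-/y hearts. Of the 4 *Mtm1*-/y hearts, 3 lay above all WT hearts, with an unadjusted p of 0.0356 in the edgeR test and an adjusted p of 0.546. *Sgcd* was at 6.06, 7.11, 7.41 and 8.08 CPM in WT libraries and at 7.11, 8.89, 8.95 and 9.62 CPM in *Mtm1*-/y hearts, and the groups overlapped. WT heart 4 stood apart from the other WT hearts in its markers, with a slow fibre sum of 6222 CPM against 11730 to 14380 CPM, a cardiomyocyte sum of 60349 CPM against 40908 to 47803 CPM and a mesothelial sum of 240 CPM against 46.9 to 94.8 CPM. The same library had the lowest WT heart levels of *Sgca*, *Sgcb* and *Sgcd* and the highest of *Utrn* and *Dtna*. Without it the log2 fold change was 0.17 for *Sgca*, 0.20 for *Sgcd*, 0.15 for *Dtna* and 0.01 for *Utrn*, none of them called. Without it, the heart minus gastrocnemius difference of the genotype effects was 0.55 for *Sgca*, still called, and 0.22 for *Sgcb* (edgeR adjusted p = 0.0673), and *Utrn* was higher in the WT heart than in the WT gastrocnemius by 0.83 on the log2 scale, also still called. *Dag1* had nearly equal means, at 574 ± 57.2 CPM in WT hearts and 574 ± 31.6 CPM in *Mtm1*-/y hearts (SD, n = 4 each). *Dmd* gave 0.15 (95% interval -0.05 to 0.35) and *Utrn* -0.09 (95% interval -0.32 to 0.13).

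In the liver, 5 of the 8 members had enough counts to be tested and none was called, where 0 of 14305 genes (0%) were called by edgeR, 606 (4.24%) had an unadjusted p under 0.05, and 25 were called by DESeq2. Of the 5 members, 1 had an unadjusted p under 0.05. *Utrn* was at 34.6, 43.6 and 48.3 CPM in WT and at 30.6 to 38.4 CPM in the 4 *Mtm1*-/y livers, which overlapped, with a log2 fold change of -0.35 (SE 0.14, unadjusted p of 0.0337, edgeR adjusted p = 0.969). *Dmd* gave 0.00 (95% interval -0.30 to 0.31) and *Dag1* 0.06 (95% interval -0.23 to 0.34). *Sgca* had 0, 0, 4 and 8 counts and *Dtna* 3 to 15 counts in the *Mtm1*-/y livers, and with *Sgcd*, at 0, 0, 1 and 12 counts, they were not tested. *Sgcb* and *Sspn* were tested at 37 to 60 and 23 to 47 counts per library, and neither was called.

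**Figure D3:**
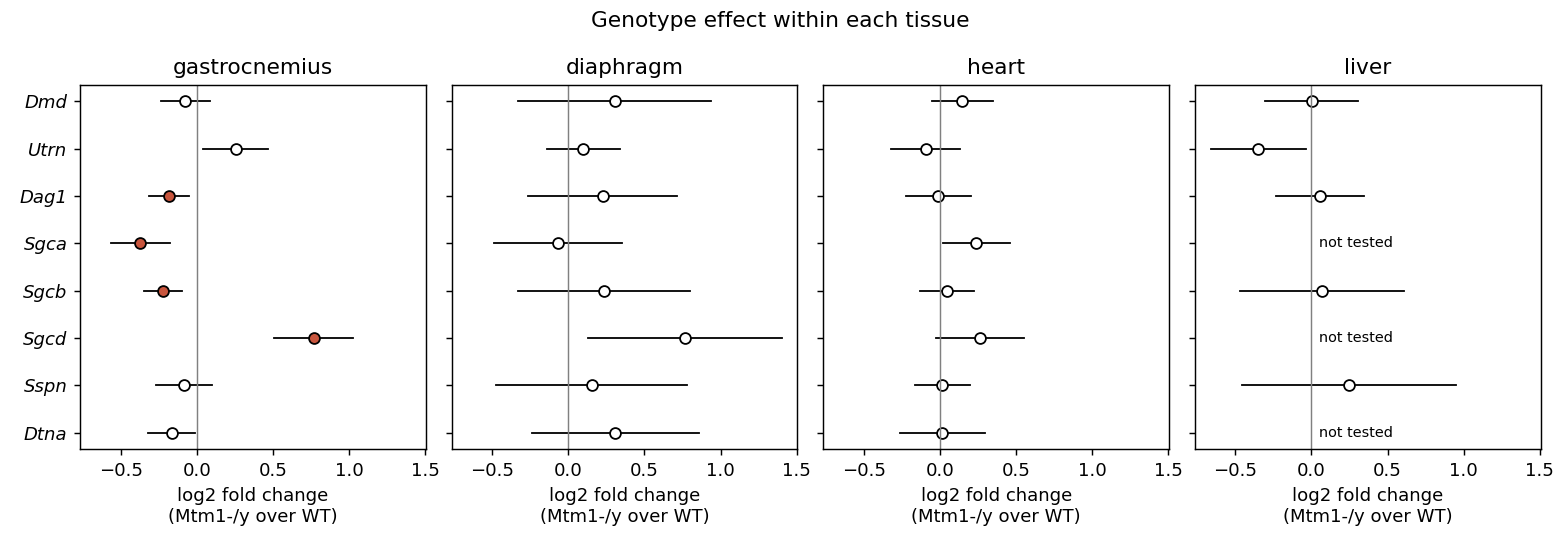
Log2 fold change of each gene in *Mtm1*-/y over WT libraries within each tissue; points are edgeR estimates, lines are 95% intervals, and filled points passed an adjusted p of 0.05. Filled points occur only in the gastrocnemius, at 0.77 for *Sgcd* and at -0.37, -0.22 and -0.18 for *Sgca*, *Sgcb* and *Dag1*.

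A call in the gastrocnemius and none in the heart does not show a difference, so the difference of the genotype effects was tested in 1 fit of both tissues. For heart minus gastrocnemius, 2 of 8 members were called, where 19.8% of the 16627 genes tested were, and both were higher, as were 9.94% of all genes. *Sgca* gave 0.63 (SE 0.14, edgeR adjusted p = 0.0061), with every *Mtm1*-/y library below WT in the gastrocnemius and a higher mean in the *Mtm1*-/y heart, and it was called without any single library. *Sgcb* gave 0.29 (SE 0.09, edgeR adjusted p = 0.0389). This *Sgcb* call was kept without *Mtm1*-/y heart 2, WT gastrocnemius 1, WT heart 2 or WT heart 3, and was lost without any of the other 12 libraries and without a filter on low counts (adjusted p = 0.141). With all 30 libraries in the fit neither was called (adjusted p = 0.286 for *Sgca* and 0.389 for *Sgcb*). Both differences also depend on the TMM scaling of the gastrocnemius. Per total count alone, the *Sgcb* mean was higher in *Mtm1*-/y than in WT gastrocnemius and nearly equal between genotypes in the heart. The *Sgcb* difference thus took the opposite direction on that scale. The *Sgca* difference kept its direction but was smaller, and the genotypes overlapped in both tissues. *Sgcd* gave -0.49 (SE 0.18, edgeR adjusted p = 0.064) and passed the test only without WT heart 4 (-0.57, edgeR adjusted p = 0.0349). *Utrn* gave -0.33 (edgeR adjusted p = 0.108), and *Dmd*, *Dag1*, *Sspn* and *Dtna* lay between 0.11 and 0.24.

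For diaphragm minus gastrocnemius no member was called, where 0.28% of all genes tested were, and 0 of the 8 had an unadjusted p under 0.05, as had 12.8% of all genes. DESeq2 called none of the 8. The *Sgcd* effects of these muscles differed by -0.01, but with a 95% interval of -0.65 to 0.63. For *Sgca*, the difference was 0.29 (95% interval -0.13 to 0.71), and for *Sgcb* it was 0.45 (95% interval -0.06 to 0.95). Heart minus diaphragm called none of the 8 either, where 0.00573% of all genes tested were called, and 0 of the 8 had an unadjusted p under 0.05, as had 10.6% of all genes. None of them was called by DESeq2.

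The ratio of utrophin to dystrophin transcripts within a library does not depend on how libraries are scaled. Per kilobase of exon, it was 0.281, 0.324, 0.348 and 0.410 in the WT gastrocnemius, 0.520, 0.590, 0.716 and 0.916 in the WT diaphragm and 0.934, 0.954, 1.05 and 1.29 in the WT heart. The ranges of the 3 muscles did not overlap, in this order. In the diaphragm the ratio moved with the hepatocyte sum: WT diaphragm 3, at 0.520, had the lowest sum (419 CPM), and the other WT libraries, at 0.590 to 0.916, had 23375 to 34630 CPM. In *Mtm1*-/y mice it was 0.395, 0.405, 0.434 and 0.471 in the gastrocnemius, 0.439, 0.612 and 0.727 in the diaphragm, and 0.844 to 1.05 in the heart. The *Mtm1*-/y diaphragm library at 0.439 had a hepatocyte sum of 746 CPM and that at 0.727 had 44163 CPM, and the part of liver RNA in the diaphragm ratio was not tested. The gastrocnemius mean was 0.341 ± 0.0538 in WT and 0.426 ± 0.0339 in *Mtm1*-/y libraries (SD, n = 4 each). It was 0.33 on the log2 scale and did not pass a two-sided exact permutation test (p = 0.0857, 0.214 adjusted over the 3 muscles). The same exact test gave p = 0.514 for the diaphragm and p = 0.143 for the heart, where the *Mtm1*-/y means were lower, and the smallest p it can give with these groups is 0.0286. Without WT gastrocnemius 1, the highest WT ratio, the gastrocnemius difference was 0.43 and reached that smallest value. In the liver the ratio was 1.37, 1.79 and 1.81 in WT and 1.21, 1.26, 1.33 and 1.43 in *Mtm1*-/y mice, and the groups overlapped.

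**Figure D4:**
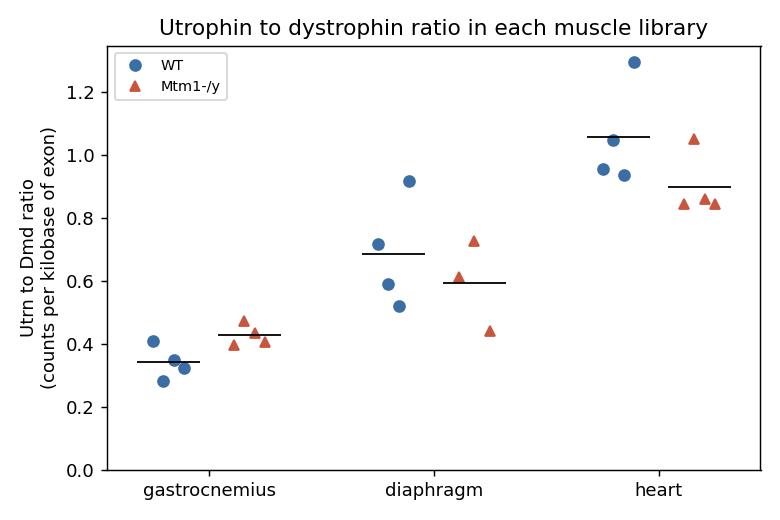
Ratio of *Utrn* to *Dmd* counts per kilobase of exon in each muscle library (vertical axis from 0); circles are WT, triangles are *Mtm1*-/y and bars are group means. In WT the ratio steps up from gastrocnemius to diaphragm to heart, from a mean of 0.341 to 1.06, with the lowest WT diaphragm ratio (0.520) in the library with the lowest hepatocyte sum (419 CPM), and the genotypes overlap in every muscle.

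The other genes of the complex and its surroundings were taken from 6 lists. Of 12 other subunits of the complex, 9 were tested in the gastrocnemius, where 3 fell and none rose, beside 14.9% of all genes that fell and 14.1% that rose. Among them were *Nos1*, the neuronal nitric oxide synthase that the complex holds at the membrane (48.8 ± 9.80 to 25.1 ± 4.07 CPM, log2 -0.97, SE 0.16, edgeR adjusted p = 0.00198), and the syntrophin gene *Sntb1* (-0.77, SE 0.21, edgeR adjusted p = 0.021). Syntrophins bind *Dmd* and *Dtna* products and tether nitric oxide synthase.

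The same shares of all genes, 14.1% up and 14.9% down, with a median of 0.02, are the background for the lists that follow. Of 13 ligands and basement membrane genes, all tested, 1 rose and none fell, with a median of -0.07. The riser was *Bgn*, the proteoglycan biglycan that binds sarcoglycans and dystroglycan, at 134 ± 30.5 CPM in WT muscle and 323 ± 57.0 CPM in *Mtm1*-/y muscle (log2 1.25, SE 0.17, edgeR adjusted p = 0.000851). Of 18 genes for the glycosylation of dystroglycan, 17 were tested, 3 fell and none rose, with a median of -0.05. They included the transferase genes *Rxylt1* (-0.47, SE 0.09, edgeR adjusted p = 0.00467) and *Pomgnt2* (-0.57, SE 0.14, edgeR adjusted p = 0.0142).

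The remaining lists hold neighbours of the complex, and their counts stand beside 29% of all genes called. Of 15 costamere and linker genes 7 rose and 2 fell, with a median of 0.32. By smallest p the 4 first were *Krt8*, a keratin (0.0686 ± 0.0468 to 3.56 ± 1.73 CPM, edgeR adjusted p = 0.000175), *Tln2*, a talin that links integrins to actin (-0.73, SE 0.08, edgeR adjusted p = 0.00037), *Synm*, the intermediate filament protein synemin that binds dystrophin and dystrobrevin (-0.60, SE 0.09, edgeR adjusted p = 0.00103), and *Flnc*, the muscle filamin that binds sarcoglycans (1.09, SE 0.18, edgeR adjusted p = 0.00181). Of 11 neuromuscular junction genes 8 rose and none fell, with a median of 0.61, among them the acetylcholine receptor subunits *Chrnb1* (62.3 ± 9.87 to 136 ± 16.8 CPM, edgeR adjusted p = 0.000345), *Chrna1* (1.77, SE 0.22, edgeR adjusted p = 0.00055) and *Chrnd* (2.26, SE 0.41, edgeR adjusted p = 0.00319) and the collagen tail gene *Colq* (0.79, SE 0.14, edgeR adjusted p = 0.00248). Of 7 genes of immature and regenerating fibres 4 rose and 1 fell, with a median of 1.05. They included *Ncam1* (1.77, SE 0.16), the perinatal myosin *Myh8* (1.05, SE 0.11) and the embryonic myosin *Myh3* (3.81, SE 0.49), which rose, and the satellite cell gene *Pax7* (-1.05, SE 0.16), which fell (edgeR adjusted p from 0.000154 to 0.00137).

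In the diaphragm, heart and liver, no gene of these 6 lists passed the test, where 0.0119%, 0.00656% and 0% of all genes were called, so that these counts say nothing particular to the lists. In the diaphragm the medians were 0.29 for ligands, 0.02 for glycosylation, 0.19 for linkers, 0.22 for the junction and 2.09 for the 7 immature fibre genes, and 0 of the 7 was called.

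**Figure D5:**
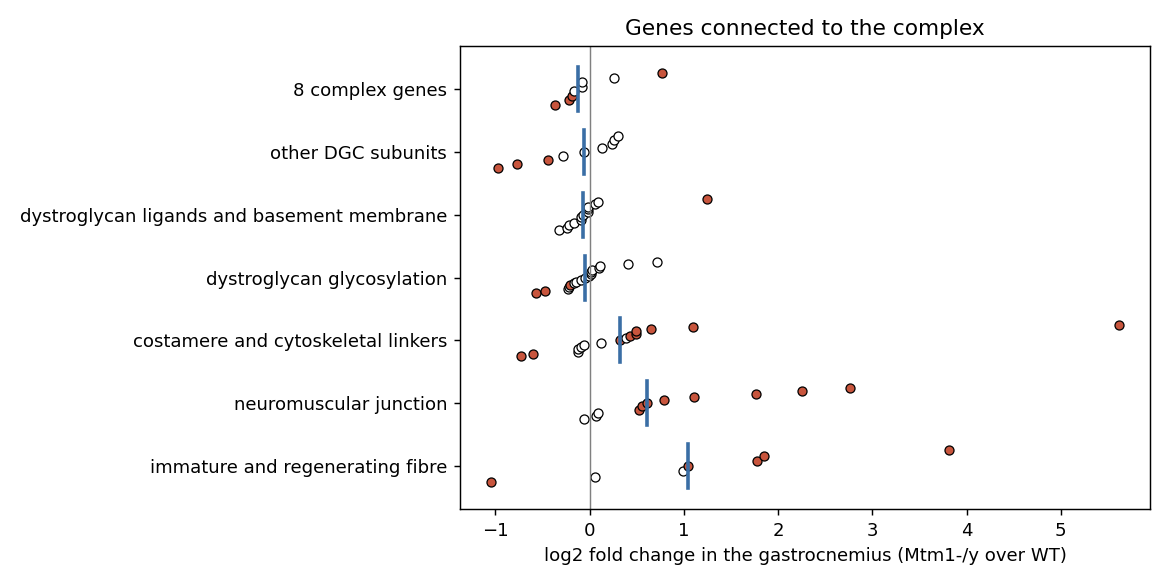
Log2 fold change in the *Mtm1*-/y over the WT gastrocnemius for the 8 genes and for each tested gene of 6 connected lists; each point is 1 gene, filled points passed an adjusted p of 0.05, and blue bars are list medians. The medians of the 8 genes (-0.12), other subunits, ligands and glycosylation lie near 0, and those of the junction (0.61) and immature fibres (1.05) lie to the right.

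The gene with the most similar pattern was sought for each member over the 8 means of tissue and genotype, by the root mean square difference of centred log2 CPM among 12481 genes with at least 5 CPM in a group. *Utrn* lay closest to *Ppp2r3d* (0.07), *Dag1* to *P4ha1* (0.08), *Sgcb* to *Cand2* (0.09), *Dmd* to *Agpat1* (0.11), *Sgca* to *Fbxo40* (0.13), *Sspn* to *Clip4* (0.14) and *Dtna* to *Speg* (0.15). *Sgcd* had the least similar neighbour, *Sema3b*, at 0.23. The 8 means include the 2 of the liver, where *Sgcd* had 0 to 4 counts in WT and 0 to 12 in *Mtm1*-/y libraries. *Sgca* had 2 counts in each WT liver library and 0 to 8 in *Mtm1*-/y libraries. *Dtna* had 5 to 12 counts in WT and 3 to 15 in *Mtm1*-/y livers. The distances of *Sgcd* and *Sgca* thus rest in part on values about at the limit of counting, and that of *Dtna* on low counts.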

How the data were processed

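RNA of 30 tissue samples was sequenced as 50-base single reads. The authors made libraries with a stranded mRNA kit, trimmed reads with cutadapt 1.10, mapped them with STAR 2.5.3a (mm10) and counted unambiguous reads per gene with htseq-count 0.6.1p1 (union mode, Ensembl 96). The deposited values are raw counts for 36103 Ensembl genes, all of which were given a symbol from GENCODE M21 of the same build.

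Counts were analysed in R 4.3.3 with edgeR 4.0.16. Genes were filtered with filterByExpr (minimum count 10) and scaled by TMM, and groups were compared by the quasi-likelihood F test with Benjamini-Hochberg adjustment over all genes tested. Called means an adjusted p below 0.05. Genotypes were compared within each tissue, genotype effects between 2 muscles as a contrast in a joint fit, and tissues in 1 fit of the 15 WT libraries. Intervals are 95% intervals of the fit. Levels in CPM use TMM factors over all libraries, and RPKM divides them by joined exon length. The ratio of *Utrn* to *Dmd* was compared by exact permutation. Promoter windows are from RefSeq (GRCm38.p6). The fits were tested on simulated data. Deposited libraries were checked for duplicates, and none was found.

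All 8 members are reported. Of each connected list, up to 4 called genes with the smallest p in the gastrocnemius are named, and markers are given as summed levels. Some genes of these lists are not reported here by name. The members and lists were chosen with earlier results of these data known. Replicate numbers were not used to pair samples. Same-numbered libraries of the genotypes correlated in their deviations from the group mean by -0.032 to 0.121 in the gastrocnemius. Between WT diaphragm and WT heart the range was 0.00535 to 0.267. Whether these tissues share animals cannot be told from this, and the tests across tissues treated libraries as independent. The alternatives were DESeq2 1.42.0 and its size factors, limma 3.58.1 (voom with sample weights), no low-count filter, other sets of libraries in the fit, a block for the replicate number, omission of each library, leaving out liver- or muscle-enriched genes, and a fold threshold.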

Additional observations from a re-analysis of the deposited data

Results flagged for a closer look

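Among 48 groups of 4 libraries tested for a library far from the others, 3 stood out, and chance gives about 1 in 20. *Dmd* was at 44.2 CPM in *Mtm1*-/y liver 1, against 33.7 to 34.1 CPM in the other 3 *Mtm1*-/y livers. *Dag1* was at 450 CPM in *Mtm1*-/y gastrocnemius 1, against 418 to 423 CPM in the other 3, and without that library the log2 fold change of *Dag1* was -0.20 (edgeR adjusted p = 0.055). *Sgcd* was at 0.510 CPM (12 counts) in *Mtm1*-/y liver 3, against 0 to 0.0442 CPM in the other 3.

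The genotype effect differed between heart and gastrocnemius for 2 genes, by a test of the difference itself. For *Sgca* it differed by 0.63 on the log2 scale (edgeR adjusted p = 0.0061) and for *Sgcb* by 0.29 (edgeR adjusted p = 0.0389), in both higher in the heart. Both values rest on the TMM scaling, and per total count alone the *Sgcb* means gave the opposite direction.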

How the results depend on the processing

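Of 616 values of single genes under another processing, 582 kept their direction and their side of the threshold, and of 1307 values with 1 library left out, 1245 did. In the gastrocnemius, 4 members were called; the count was 0 with all 30 libraries in the fit, 0 with a fold threshold of 1 on the log2 scale as well, 2 in the fit of the 23 muscle libraries (chosen after seeing the data), and 3 to 4 without any single library. That muscle fit called 1 member in the diaphragm and 411 genes of the whole table there, against 2 genes in the fit of the diaphragm alone and 438 with DESeq2. DESeq2 also called more genes in the heart (85 against 1), in the liver (25 against 0) and for the differences diaphragm minus gastrocnemius (376 against 49) and heart minus diaphragm (217 against 1), and the fit of all 30 libraries called 2925 genes in the gastrocnemius (against 4479), 274 in the diaphragm, 5 and 14 in heart and liver. For heart minus gastrocnemius, 2 members were called; the count was 1 without the low-count filter, 0 with all 30 libraries in the fit, 1 with the replicate block, and 1 to 2 without any single library. Over the whole table, this difference was called for 3297 genes (1652 higher in the heart, 1645 lower), against 1736 with all 30 libraries and 3503 with DESeq2 size factors (2059 higher, 1444 lower). Without the low-count filter 8 genes were called in the liver and 27 for diaphragm minus gastrocnemius. The cause was not tested.

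Whether libraries with the same replicate number share an animal is not known, and each member's same-numbered libraries were not treated as pairs. The replicate block called 3925 genes in the gastrocnemius, 0 in the diaphragm, 11 for diaphragm minus gastrocnemius and 4 for heart minus diaphragm; in the gastrocnemius 1 of 4 libraries correlated best with its own number. Under the block *Dag1* in the gastrocnemius had an adjusted p of 0.0792, *Sgcb* for heart minus gastrocnemius 0.0671 and *Utrn* for liver against diaphragm 0.06, and *Sgcb* for heart against diaphragm passed at 0.0397. The block changed no other call of a member. With the block and exact permutation the ratio of *Utrn* to *Dmd* gave p = 0.25 in the gastrocnemius and heart and p = 0.75 in the diaphragm.

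Values that changed sign were all small and uncalled. They were *Sgca* in the diaphragm (0.0399 with the block), *Sgcb* in the heart (-0.000239 with voom), *Dag1* in the heart (0.00523 in the 23-library fit), *Dag1* in the liver (-0.0203 with the block), *Dmd* in the liver (-0.0306 with voom and -0.000887 without muscle-enriched genes), *Sgcd* for diaphragm minus gastrocnemius (0.0221 with DESeq2 size factors, 0.0107 without the filter and 0.0281 with DESeq2) and *Dmd* for WT heart against diaphragm (0.000762 with DESeq2 and 0.00482 with the block). Leaving out 1 library gave -0.18 to 0.0334 for *Sgca* and -0.11 to 0.34 for *Sspn* in the diaphragm, -0.14 to 0.0147 for *Utrn*, -0.0460 to 0.0557 for *Dag1*, -0.0034 to 0.0934 for *Sgcb*, -0.0054 to 0.0739 for *Sspn* and -0.0506 to 0.15 for *Dtna* in the heart, -0.13 to 0.0520 for *Dmd*, -0.0224 to 0.13 for *Dag1* and -0.0253 to 0.25 for *Sgcb* in the liver, -0.15 to 0.23 for *Sgcd* and -0.0457 to 0.42 for *Sspn* for diaphragm minus gastrocnemius, -0.34 to 0.11 for *Dmd*, -0.37 to 0.0304 for *Sgcb* and -0.31 to 0.16 for *Sspn* for heart minus diaphragm, and, in WT, -0.0246 to 0.21 for *Sspn* for diaphragm against gastrocnemius, -0.20 to 0.0947 for *Dmd* for heart against diaphragm and -0.20 to 0.0158 for *Utrn* for liver against gastrocnemius. The difference in the ratio of *Utrn* to *Dmd* in the gastrocnemius lay between 0.25 and 0.43.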
